A study of Mus musculus with 6 samples.

Results

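Keratinocytes secrete chemokines and growth factors that draw leukocytes into the epidermis or keep them alive there, and 10 such genes were followed in newborn mouse epidermis. They were chosen by function: the growth and survival factors Il34, Csf1, Tgfb1, Il7 and Tslp, and the chemokines Cxcl1, Cxcl12, Cxcl14, Ccl20 and Ccl27a. Each matched 1 of the 55487 Ensembl genes in the deposited files. The study compared 3 libraries of Znf750 cKO epidermis with 3 of Control epidermis, all from back skin of pups at postnatal day 0. Dispase freed the epidermis from the dermis, trypsin dispersed it, and poly(A) RNA was sequenced in single reads of 100 bases. Znf750, named Zfp750 in the mouse, encodes a transcription factor with a zinc finger that acts in keratinocyte differentiation. The sources used here do not give the strain, the alleles, what drives the deletion, the genotype of the Control pups or how many pups went into a library. The p-values therefore measure only the spread between these libraries, which may be technical in part.

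Il34 and Csf1 are ligands of the receptor Csf1r, which monocytes, macrophages and Langerhans cells carry. Langerhans cells, the phagocytes of the epidermis, need keratinocyte Il34 to persist there in mice, and they also need Tgfb1. Il7 and Tslp act on lymphoid and dendritic cells through receptors that share Il7r, and Ccl27a and Ccl20 attract T cells and dendritic cells through Ccr10 and Ccr6.

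Levels are given as FPKM, the authors' read density per transcript length and library depth, which allows levels of different genes to be compared. Tests used limma on log2(FPKM + 1) across the 13688 genes with at least 1 FPKM in at least 3 libraries. A gene is said to have risen or fallen where its Benjamini-Hochberg adjusted p was under 0.05. Zfp750 itself stood at 0.99, 0.83 and 1.47 FPKM in Znf750 cKO replicates 1, 2 and 3, against 44.8, 32.0 and 34.9 FPKM in Control. Libraries held an estimated 21440000 to 35360000 reads. Cytokeratins of the epidermis were the main transcripts in both groups, with Krt10 at 11485 ± 2981 FPKM in Znf750 cKO and 9563 ± 2000 FPKM in Control (SD, n = 3 each).

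Of the 10 factors, 6 passed the filter on low values and 4, namely Il7, Tslp, Cxcl12 and Ccl20, did not. Of those 6, only Ccl27a fell and 0 rose, where 3.1% of all tested genes fell and 1.11% rose. In Ccl27a, Il34 and Csf1, every Znf750 cKO library lay below every Control library. Such a separation downwards was seen in 19.7% of all tested genes, and the upward one, seen in 8.28%, in 0 of the 6. An unadjusted p under 0.05 was found for 3 of the 6 and for 21.3% of all tested genes, and a log2 change below 0 for 4 of the 6 and 62.2% of all. The median log2 change was -0.38 over the 6 and -0.08 over all tested genes. Among the genes under the filter, Tslp was higher in each Znf750 cKO library than in any Control library.

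**Figure D1:**
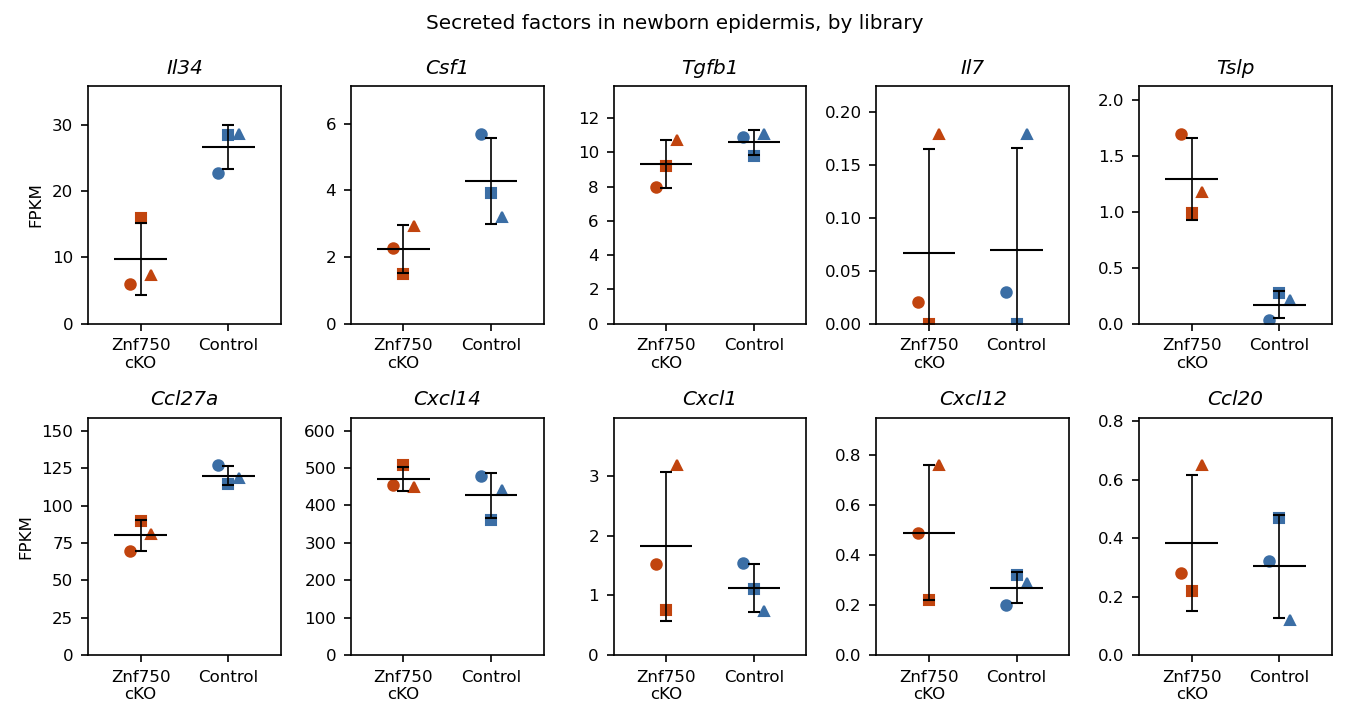
FPKM (linear axes from 0, scaled per gene) of the 10 secreted factors in 3 Znf750 cKO (left, orange) and 3 Control libraries (right, blue). Circles, squares and triangles are replicates 1, 2 and 3, and black lines are the mean and SD. Il34, Csf1 and Ccl27a are lower and Tslp is higher in Znf750 cKO with no overlap, and the other 6 genes overlap.

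Levels spanned several orders of magnitude. In both groups Cxcl14 was the most abundant factor, at 470 FPKM in Znf750 cKO and 428 FPKM in Control, followed by Ccl27a. In Control, Il34, Tgfb1, Csf1 and Cxcl1 came next, each apart from its neighbours, while Ccl20, Cxcl12, Tslp and Il7 lay below 0.5 FPKM with overlapping neighbours. In Znf750 cKO, Il34 overlapped Tgfb1 in level, Csf1 overlapped Cxcl1, and Cxcl1 overlapped Tslp. Tslp, which ranked 9 of 10 in Control, ranked 7 of 10 in Znf750 cKO, above Cxcl12 and Ccl20.

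Ccl27a encodes a skin chemokine that attracts T cells carrying Ccr10. It stood at 69.4, 89.9 and 81.1 FPKM in Znf750 cKO replicates 1, 2 and 3, against 127, 114 and 119 FPKM in Control. The highest Znf750 cKO library stayed below the lowest Control library. Its mean was 80.2 ± 10.3 FPKM in Znf750 cKO and 120 ± 6.56 FPKM in Control (SD, n = 3 each), 33.2% lower. The log2 change was -0.58 (SE 0.12, 95% interval -0.86 to -0.31, limma adjusted p = 0.038). With the replicate number as a block the adjusted p was 0.066, and none of the 6 tested factors fell in that fit, where 1.87% of tested genes did. Of the 6 fits that each omit a library, Ccl27a passed in 1, that without Znf750 cKO replicate 2, with adjusted p from 0.044 to 0.13 and the same direction in each.

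Ccl27a (ENSMUSG00000073888, chromosome 4, 41769467 to 41774247, minus strand, GRCm38) belongs to a group of near-identical genes, so its level alone is uncertain. Of the distinct 100-base windows in its annotated transcripts, 26.5% also occur in transcripts of other genes, among them Ccl27b, Gm13306 and Gm20878. Those copies stood at 0.52 to 3.42 FPKM (Ccl27b), 0.52 to 3.6 FPKM (Gm13306) and 1.04 to 3.02 FPKM (Gm20878) over the 6 libraries. Summed with Ccl27a, the group held 72.5, 93.7 and 90.7 FPKM in Znf750 cKO, against 134, 124 and 125 FPKM in Control. The sum thus separated the groups as Ccl27a alone did, at the smallest p that an exact two-sided permutation test of 3 against 3 allows (p = 0.1). Ccl27a also overlaps Il11ra1 on the other strand, with 8 shared exon bases.

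RefSeq lists 3 transcription starts for Ccl27a, and the gene's FPKM does not tell them apart. The windows around the outermost and the innermost start are printed here because Ccl27a was the factor that fell. They run from 250 bases before the start to 50 after it, 5′ to 3′ on the gene's strand (GRCm38.p6), at chr4:41774127-41774426 (outer) and chr4:41770163-41770462 (inner).
Ccl27a outer start: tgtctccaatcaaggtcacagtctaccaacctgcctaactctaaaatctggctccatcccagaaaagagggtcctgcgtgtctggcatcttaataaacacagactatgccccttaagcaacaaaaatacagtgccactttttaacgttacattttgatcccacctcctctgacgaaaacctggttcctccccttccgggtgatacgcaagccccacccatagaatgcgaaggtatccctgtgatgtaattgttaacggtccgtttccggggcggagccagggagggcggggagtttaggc
Ccl27a inner start: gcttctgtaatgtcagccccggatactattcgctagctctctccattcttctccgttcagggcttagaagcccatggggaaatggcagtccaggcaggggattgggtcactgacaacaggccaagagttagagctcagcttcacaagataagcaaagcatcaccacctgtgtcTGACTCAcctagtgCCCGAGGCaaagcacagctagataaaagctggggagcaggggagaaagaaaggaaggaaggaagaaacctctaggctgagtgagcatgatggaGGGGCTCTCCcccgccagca
Capitals mark matches on either strand to 3 motifs. TGANTCA, the AP-1 motif, lies 77 to 71 bases before the inner start. CCNNAGGC, a motif reported for human ZNF750, lies 63 to 56 bases before it, and a match to the NF-kB consensus lies 30 to 39 bases after it. TATAAA, also searched, has no match in either window, and the outer window has none of the 4. Of 32851 RefSeq windows of this length, 7.81% hold the AP-1 motif, 24.1% CCNNAGGC, 5.8% the NF-kB consensus and 13.6% TATAAA. These matches are descriptions of letters, and binding was not measured. Windows were listed for 7 of the 10 factors, without Il34, Il7 and Tslp. CCNNAGGC was found in those of Ccl27a and Tgfb1, and the NF-kB consensus in those of Csf1, Tgfb1, Cxcl1, Ccl20 and Ccl27a.

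Il34, the main Csf1r ligand of epidermis, stood at 6.0, 15.9 and 7.37 FPKM in Znf750 cKO replicates 1, 2 and 3, against 22.9, 28.5 and 28.8 FPKM in Control. Znf750 cKO replicate 2 lay well above the other 2 libraries of its group and still below the lowest Control library. The mean was 9.76 ± 5.38 FPKM in Znf750 cKO and 26.7 ± 3.33 FPKM in Control (SD, n = 3 each), 2.73-fold lower. This was the largest drop among the 6 tested factors, yet with the spread in Znf750 cKO it did not pass (log2 change -1.47, SE 0.33, 95% interval -2.28 to -0.65, limma adjusted p = 0.071). Without Znf750 cKO replicate 2 the adjusted p was 0.0054 and the log2 change -1.85, and without any other single library the adjusted p lay between 0.16 and 0.22. After rescaling each library to a common sum (TPM) it was 0.049. Per 1000 FPKM of the basal keratin Krt14, Il34 was at 0.981, 2.34 and 0.986 in Znf750 cKO and 4.5, 5.57 and 5.12 in Control. Krt14 was higher in each Znf750 cKO library than in any Control library. This ratio was therefore bound to separate the groups and adds no support. Krt14 itself was at 6799 ± 677 FPKM in Znf750 cKO and 5268 ± 303 FPKM in Control (SD, n = 3 each). Il34 (ENSMUSG00000031750) lies on chromosome 8 at 110741829 to 110805924, minus strand, and shares 22 and 75 exon bases with the antisense genes Gm15894 and Gm15895.

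Csf1, the other Csf1r ligand, stood at 2.28, 1.5 and 2.93 FPKM in Znf750 cKO, against 5.71, 3.93 and 3.2 FPKM in Control. The groups did not overlap, although Znf750 cKO replicate 3 came close to Control replicate 3. The log2 change was -0.70 (SE 0.24, 95% interval -1.25 to -0.16, limma adjusted p = 0.14), and Csf1 passed in none of the 6 fits that omit a single library. The ratio of Il34 to Csf1 was 2.63, 10.6 and 2.52 in Znf750 cKO and 4.0, 7.24 and 8.99 in Control. These ratios overlapped (exact two-sided permutation p = 0.4), and Il34 exceeded Csf1 in each of the 6 libraries.

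Csf1r, which answers to both ligands, fell to 1.69, 0.98 and 2.1 FPKM in Znf750 cKO, against 17.3, 10.7 and 8.78 FPKM in Control. The mean was 7.7-fold lower (log2 change -2.33, SE 0.26, limma adjusted p = 0.0059), and it passed after the omission of any 1 library and with the replicate block (adjusted p = 0.027). The 6 libraries stood in the same order for Csf1 and for Csf1r, from Control replicate 1 at the top to Znf750 cKO replicate 2 at the bottom, an order looked for after the values were seen. For Il34 the order differed, since Znf750 cKO replicate 2 had the most Il34 and the least Csf1r of its group. The ratio of Csf1r to Il34 was 0.282, 0.0616 and 0.285 in Znf750 cKO and 0.756, 0.375 and 0.305 in Control, lower with no overlap (exact two-sided permutation p = 0.1).

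Csf1r is known from myeloid cells, and other transcripts of those cells fell as well. Of 12 tested markers of Langerhans cells and related phagocytes, 9 fell, and of 8 tested macrophage markers 7 fell. Over all tested genes 3.1% fell. With the replicate block the counts for the 2 lists were 6 and 5, where 1.87% of all tested genes fell in that fit. Of the 9, 1 (H2-Aa) was under 1 FPKM in every Znf750 cKO library and met the filter only through Control. The same held for 3 of the 7, Lyz2 among them. Others of the 9, Csf1r among them, also needed Control libraries to meet the filter, since not every Znf750 cKO library reached 1 FPKM. All these genes met the filter through the group where they are high, so their counts give no support to a fall. With no filter Csf1r still passed (limma adjusted p = 0.037). Tyrobp, Cd74, C1qb and C1qa reached 1 FPKM in all 6 libraries. The adaptor Tyrobp was at 3.86 ± 0.49 FPKM in Znf750 cKO and 30.1 ± 4.05 FPKM in Control, the class II chain H2-Aa at 0.273 ± 0.208 and 7.04 ± 2.69, and the invariant chain Cd74 at 2.42 ± 0.572 and 24.1 ± 9.78 (SD, n = 3 each, limma adjusted p = 0.00021, 0.0038 and 0.0044). The complement chains C1qb and C1qa were at 3.84 ± 0.414 and 2.78 ± 0.562 FPKM in Znf750 cKO and at 27.8 ± 5.1 and 22.0 ± 5.66 FPKM in Control, and Lyz2 was at 0.41 ± 0.141 and 6.22 ± 1.5 FPKM (SD, n = 3 each, limma adjusted p = 0.00027, 0.00089 and 0.0017). Summed over all 15 markers, the Langerhans list held 38.5 to 53.7 FPKM in Znf750 cKO and 111 to 187 FPKM in Control. Cd207, the defining langerin gene, was at 0 to 0.06 FPKM in all 6 libraries. In such bulk samples, fewer cells of a type and less RNA per cell cannot be told apart. The part of these cells in the levels of Il34, Csf1 and Ccl27a was not tested.

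**Figure D2:**
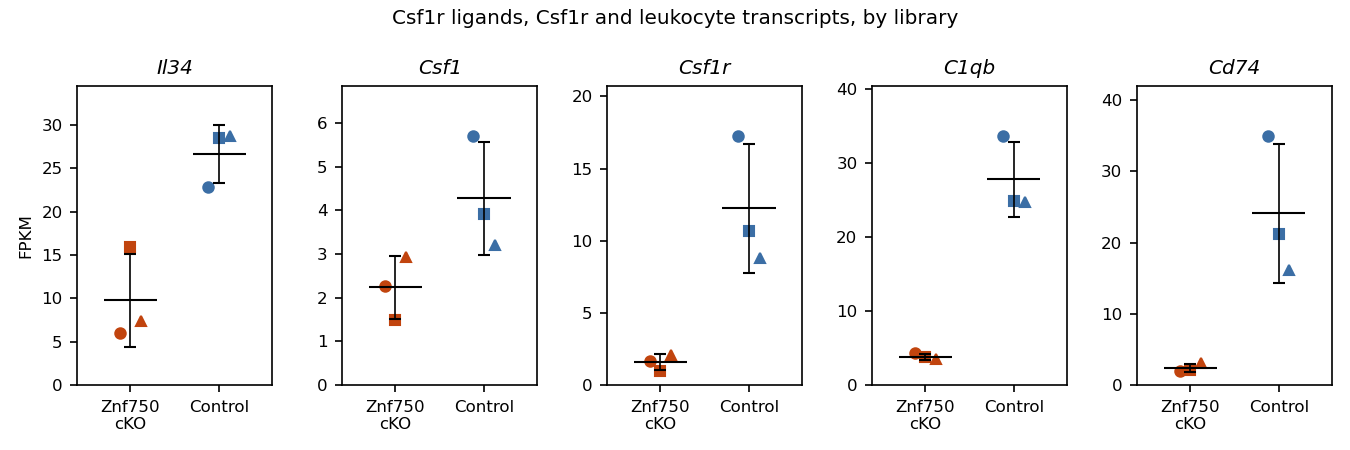
FPKM (linear axes from 0) of Il34, Csf1, their receptor Csf1r, the complement chain C1qb and the invariant chain Cd74 in 3 Znf750 cKO (left, orange) and 3 Control libraries (right, blue). Symbols are replicates 1 (circle), 2 (square) and 3 (triangle) with mean and SD in black. All 5 genes are lower in Znf750 cKO with no overlap, and Znf750 cKO replicate 2 has the highest Il34 but the lowest Csf1r of its group.

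Tslp encodes a keratinocyte cytokine that acts on dendritic cells and basophils and is known to be raised in damaged or atopic skin. It stood at 1.7, 0.99 and 1.18 FPKM in Znf750 cKO, against 0.03, 0.27 and 0.21 FPKM in Control. Every Znf750 cKO library was above every Control library, and the ratio of means was 7.59. At the estimated depths this is about 62, 27 and 28 reads in Znf750 cKO and 1, 6 and 5 reads in Control, since both annotated transcripts are close in length (1126 and 1134 bases). Tslp failed the filter because Znf750 cKO replicate 2 was just under 1 FPKM. With no filter the log2 change was 0.96 and did not pass (SE 0.19, 95% interval 0.51 to 1.42, limma adjusted p = 0.14). With the filter at 0.5 FPKM the adjusted p was 0.037, but Tslp met that filter only through Znf750 cKO, the group where it is high, so that value gives no support to a rise. The exact two-sided permutation p was 0.1, the smallest that 3 against 3 allows.

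Tgfb1, which encodes the cytokine that holds Langerhans cells in the epidermis, stood at 7.98, 9.21 and 10.7 FPKM in Znf750 cKO and 10.9, 9.77 and 11.1 FPKM in Control. The groups overlapped, and the log2 change was -0.17 with a 95% interval from -0.49 to 0.14 (limma adjusted p = 0.51). Secreted Tgfb1 is latent and must be released, so genes of that step and targets were read as well. Of 14 genes of Tgf-beta storage and activation, 11 were tested and 0 rose or fell by limma, 1 of them with an unadjusted p under 0.05, as had 21.3% of all tested genes. Over the 6 libraries together the most abundant were the protease Mmp14, at 77.0 ± 3.55 FPKM in Znf750 cKO and 59.6 ± 9.04 FPKM in Control, and the convertase Furin, at 26.6 ± 3.62 and 27.3 ± 0.93 FPKM (SD, n = 3 each, limma adjusted p = 0.15 and 0.89). Of 10 Tgf-beta targets, 9 were tested, 1 rose and 0 fell, where 1.11% of all tested genes rose and 3.1% fell. The 9 had a median log2 change of 0.13, and 2 of them an unadjusted p under 0.05. Tgif1, a corepressor of this pathway, rose to 40.3, 39.9 and 41.2 FPKM in Znf750 cKO, against 29.7, 25.3 and 31.3 FPKM in Control (log2 change 0.48, limma adjusted p = 0.048, 0.058 with the replicate block). Once any 1 library was omitted, Tgif1 no longer passed. Cdkn2b, a cell cycle inhibitor, was at 2.94, 4.33 and 2.93 FPKM in Znf750 cKO and 5.21, 6.93 and 6.5 FPKM in Control, lower with no overlap but not past the threshold (log2 change -0.72, limma adjusted p = 0.064). Tgfbi, the most abundant target, was at 116 ± 5.74 FPKM in Znf750 cKO and 126 ± 23.0 FPKM in Control (SD, n = 3 each, limma adjusted p = 0.71).

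Il7, a lymphocyte survival factor, was close to the detection limit. It was listed at 0.02, 0 and 0.18 FPKM in Znf750 cKO and at 0.03, 0 and 0.18 FPKM in Control. Replicates 3 of both groups held the highest value and replicates 2 were listed at 0. At the estimated depths, 1 read corresponds to 0.0314 to 0.0518 FPKM for a transcript 1 kilobase long. For the longer Il7 transcripts (1402 to 4858 bases) it corresponds to less. The values were nearly the same in both groups, so no difference in Il7 was seen at these low levels.

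Cxcl14 encodes a chemokine that resting epithelia make constitutively. It stood at 454, 508 and 449 FPKM in Znf750 cKO and 479, 362 and 441 FPKM in Control. The groups overlapped, with a log2 change of 0.14 and a 95% interval from -0.16 to 0.45 (SE 0.13, limma adjusted p = 0.58). The interval does not reach the log2 change of Ccl27a. Within each library the ratio of Ccl27a to Cxcl14 was 0.153, 0.177 and 0.181 in Znf750 cKO and 0.265, 0.316 and 0.269 in Control. These ratios, which do not depend on how a library is scaled, did not overlap (exact two-sided permutation p = 0.1). Ccl27a alone separated the groups and Cxcl14 varied little, so with these ranges the ratios could not have overlapped. They therefore add no support.

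Cxcl1, which recruits neutrophils through Cxcr2, stood at 1.53, 0.75 and 3.19 FPKM in Znf750 cKO and 1.54, 1.11 and 0.74 FPKM in Control. Znf750 cKO replicate 3 alone lay above the Control range, and the interval of the log2 change was wide, from -0.41 to 1.08 (estimate 0.33, limma adjusted p = 0.61). Without that library the log2 change was -0.00047. Cxcl12, a ligand of Cxcr4 and Ackr3 and known mainly from stromal cells, stood at 0.49, 0.22 and 0.76 FPKM in Znf750 cKO and 0.2, 0.32 and 0.29 FPKM in Control. Ccl20, the ligand of Ccr6, stood at 0.28, 0.22 and 0.65 FPKM in Znf750 cKO and 0.32, 0.47 and 0.12 FPKM in Control. Both genes lay under 1 FPKM in all 6 libraries with overlapping groups (exact two-sided permutation p = 0.3 for Cxcl12 and 0.7 for Ccl20). Ccl20 is known as an inducible chemokine of inflamed epidermis, and its level gave no difference larger than the spread.

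**Figure D3:**
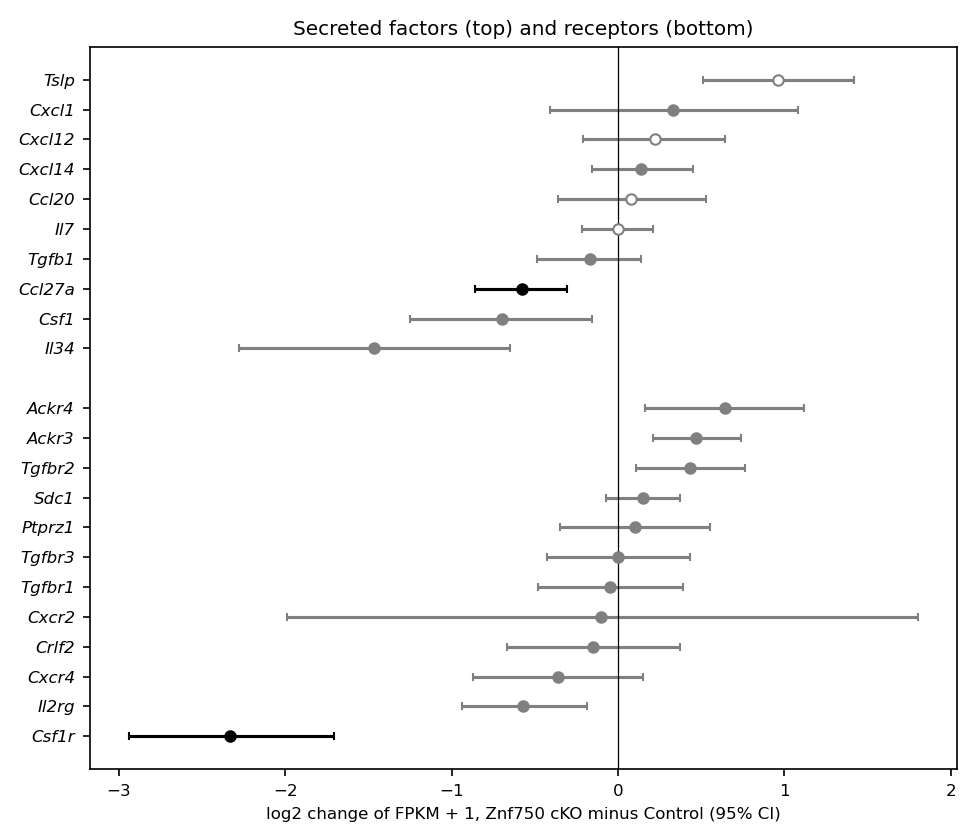
Log2 change of FPKM + 1 (Znf750 cKO minus Control, x axis) with 95% intervals for the 10 secreted factors (top) and the 12 tested receptor genes (bottom). Black points passed limma at an adjusted p under 0.05, grey ones did not, and open points are genes under the filter, fitted with no filter. Ccl27a at -0.58 and Csf1r at -2.33 are the black points, and Il34 at -1.47 has the lowest estimate among the factors.

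Receptors of these factors were read from a list of 17 genes, of which 12 were tested. Csf1r fell and the other 11 did not pass, where 3.1% of all tested genes fell. The median log2 change of the 12 was -0.02. The groups did not overlap in 2 lower genes, Csf1r and Il2rg, and in 4 higher ones, Sdc1, Tgfbr2, Ackr3 and Ackr4, where 19.7% and 8.28% of all tested genes were so separated. Il2rg, the chain shared by receptors of Il7 and related cytokines, was at 4.27, 3.3 and 4.05 FPKM in Znf750 cKO and 7.6, 5.51 and 5.62 FPKM in Control (log2 change -0.57, limma adjusted p = 0.10). Il7r, part of the receptors of Il7 and Tslp, was at 0.12, 0.13 and 0.3 FPKM in Znf750 cKO and 1.26, 0.46 and 0.93 FPKM in Control, under the filter. Crlf2, the specific chain of the Tslp receptor, was at 4.08 ± 0.656 FPKM in Znf750 cKO and 4.75 ± 1.5 FPKM in Control (SD, n = 3 each, limma adjusted p = 0.77).

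Ackr3, a scavenging receptor of Cxcl12, was at 23.0, 23.3 and 27.8 FPKM in Znf750 cKO and 17.1, 16.6 and 18.7 FPKM in Control (log2 change 0.47, limma adjusted p = 0.061). It passed upwards under median-ratio scaling (adjusted p = 0.035). Ackr4, which scavenges other CC chemokines in skin, was at 63.2 ± 3.77 FPKM in Znf750 cKO and 41.3 ± 11.7 FPKM in Control, and the syndecan Sdc1, an alternative binding partner of Il34, at 147 ± 7.64 and 132 ± 6.7 FPKM (SD, n = 3 each, limma adjusted p = 0.13 and 0.43). Tgfbr2 was at 17.9 ± 2.32 FPKM in Znf750 cKO and 13.0 ± 1.72 FPKM in Control, and Tgfbr1 at 10.8 ± 2.5 and 11.1 ± 1.79 FPKM (SD, n = 3 each, limma adjusted p = 0.13 and 0.93). Ptprz1, another receptor proposed for Il34, was at 13.3 ± 2.78 FPKM in Znf750 cKO and 12.4 ± 2.58 FPKM in Control (SD, n = 3 each, limma adjusted p = 0.84).

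Ccr10, Ccr6 and Ackr2 stayed near or under 1 FPKM. Ccr10, the receptor of Ccl27a, was at 0.4, 0.3 and 0.13 FPKM in Znf750 cKO and 0.82, 0.34 and 0.74 FPKM in Control. Ccr6, the receptor of Ccl20, was at 0.11, 0 and 0.22 FPKM in Znf750 cKO and 0, 0 and 0.4 FPKM in Control. Ackr2, a scavenger of inflammatory CC chemokines, was at 0.01, 0.31 and 0.03 FPKM in Znf750 cKO and 1.03, 0.78 and 0.54 FPKM in Control, apart but under the filter. Cxcr4 was at 7.01, 12.2 and 6.57 FPKM in Znf750 cKO and 12.1, 11.3 and 9.51 FPKM in Control (limma adjusted p = 0.40). Cxcr2 was at 1.35, 1.01 and 8.28 FPKM in Znf750 cKO and 1.55, 1.97 and 6.09 FPKM in Control, high in the third replicate of each group (limma adjusted p = 0.97).

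Other secreted factors were read from lists of chemokines and cytokines. Of 31 other chemokines, 6 were tested, and by limma 0 rose or fell, 3 of them with an unadjusted p under 0.05 (21.3% of all tested genes). The 6 log2 changes were all below 0 (median -0.64), and 3 were lower in Znf750 cKO with no overlap. Over all tested genes, 62.2% had a log2 change below 0 and 19.7% were lower with no overlap. Of the 3 lower with no overlap, only Cxcl16 reached 1 FPKM in every Znf750 cKO library. The others met the filter through Control, the group where they are high, so their direction gives no support to a fall. Of the list, 20 of the 31 stayed under 1 FPKM in each library. Cxcl16, a membrane-bound chemokine for T cells, was at 7.44, 5.81 and 10.6 FPKM in Znf750 cKO and 17.6, 13.2 and 12.1 FPKM in Control (log2 change -0.79, limma adjusted p = 0.09). Cx3cl1 was at 4.72 ± 0.324 FPKM in Znf750 cKO and 5.2 ± 0.758 FPKM in Control (SD, n = 3 each, limma adjusted p = 0.72).

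Of 23 other cytokines and growth factors, 10 were tested, 1 fell and 0 rose, where 3.1% of all tested genes fell and 1.11% rose. The median log2 change was -0.07, against -0.08 over all tested genes. An unadjusted p under 0.05 was found for 5 of the 10 and for 21.3% of all tested genes. With no overlap, 3 were lower and 2 higher, where 19.7% and 8.28% of all tested genes were so separated. Il15, which sustains T cells and natural killer cells, fell to 0.34, 0.91 and 0.55 FPKM in Znf750 cKO, against 2.59, 2.05 and 2.19 FPKM in Control. Its mean was 3.79-fold lower (log2 change -1.05, SE 0.19, limma adjusted p = 0.029, 0.062 with the replicate block), and of the 6 fits that each omit a library it passed in 1. Il15 met the filter only through Control, the group where it is high, and with no filter it did not pass. The most abundant were Mif, at 425 ± 106 FPKM in Znf750 cKO and 338 ± 67.5 FPKM in Control, and Gas6, at 69.2 ± 6.19 and 83.5 ± 7.84 FPKM (SD, n = 3 each, limma adjusted p = 0.43 and 0.22).

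Markers of other cells that could make or answer to these factors were checked as well. T cell markers summed to 8.59 to 24.5 FPKM in Znf750 cKO and 17.8 to 19.8 FPKM in Control, with Thy1 at 6.41 ± 2.97 and 8.2 ± 2.97 FPKM, and 0 of 3 tested markers passed limma (1 at an unadjusted p under 0.05). Fibroblast markers summed to 329 to 421 FPKM in Znf750 cKO and 372 to 438 FPKM in Control, mostly from Postn and Dcn, while Col1a1 stayed at 0.21 to 0.59 FPKM, and 0 of 5 tested passed limma (0 at an unadjusted p under 0.05). Melanocyte markers summed to 102 to 120 FPKM in Znf750 cKO and 82.2 to 149 FPKM in Control, with Dct at 55.8 ± 1.3 and 54.2 ± 17.8 FPKM. Sums of neutrophil, mast cell, endothelial, Merkel cell and muscle markers overlapped between the groups. Cxcr2, Kit, Pecam1, Krt20 and Myh8 were the most abundant of each over the 6 libraries together. Under 1 FPKM in all 6 libraries were 7 of 8 neutrophil, 6 of 7 mast cell, 6 of 7 endothelial, 3 of 5 Merkel cell and 6 of 7 muscle markers. The first 3 sums rest almost wholly on Cxcr2, Kit and Pecam1, so they do not show that these cells were present or unchanged. Of 3 tested haemoglobin markers, 1 fell, where 3.1% of all tested genes fell. This was Hba-a2, at 3.59 ± 0.465 FPKM in Znf750 cKO and 15.3 ± 4.56 FPKM in Control (limma adjusted p = 0.0055). Hba-a1 overlapped between the groups, with Control replicate 3 at 0.94 FPKM (limma adjusted p = 0.46). Hbb-bs was lower with no overlap but did not pass (limma adjusted p = 0.089). Red cell markers summed to 6.92 to 11.1 FPKM in Znf750 cKO and 19.6 to 52.7 FPKM in Control. The part of these transcripts in the factor levels was not tested. Of 8 keratinocyte markers, 0 passed limma. The 2 at an unadjusted p under 0.05 lay in opposite directions, Krt14 higher and the late differentiation gene Flg lower, at 903 ± 135 FPKM in Znf750 cKO and 1656 ± 565 FPKM in Control (SD, n = 3 each, limma adjusted p = 0.10 for Flg), and over all tested genes 21.3% had such a p.

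Genes whose level followed Ccl27a or Il34 most closely were sought among tested genes with a mean of at least 5 FPKM. Over the 6 libraries, Trim26, Map4k2 and Fam174a were most like Ccl27a, with Pearson r of 0.988, 0.986 and 0.986. Adh5, Taf12 and Ifitm10 were most like Il34, with r of 0.997, 0.995 and 0.995. These are descriptions over 6 libraries that fall into 2 groups, and of the 6 genes 0 passed limma between the groups, with adjusted p from 0.059 for Taf12 to 0.37 for Trim26.

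**Figure D4:**
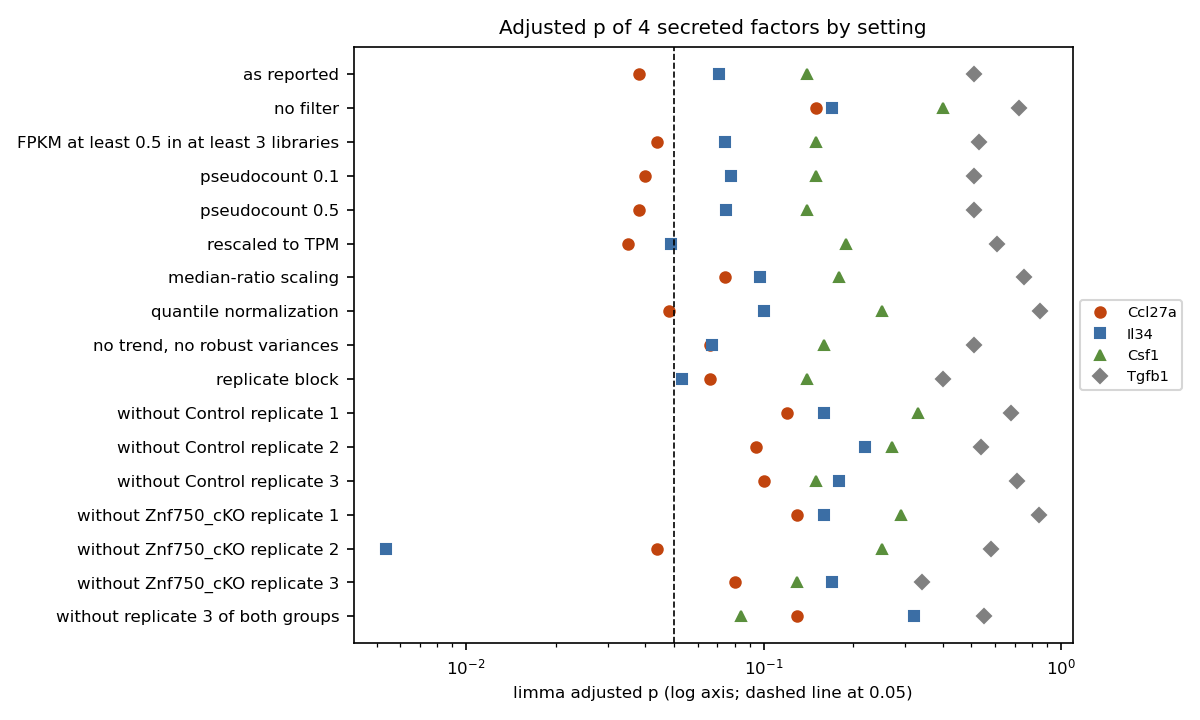
Limma adjusted p (log axis, dashed line at 0.05) of Ccl27a, Il34, Csf1 and Tgfb1 under the reported setting and 16 alternatives. Ccl27a lies left of the line in the reported setting and 6 alternatives, Il34 in 2, and Csf1 and Tgfb1 in 0.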

How the data were processed

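The deposited values are FPKM per gene, 1 column per library, made by the authors from single-end RNA-seq. Per the submitters' processing notes, STAR 2.5.2a, RSEM 1.2.28, Trim Galore 0.4.5, cutadapt 1.15, DESeq2, FastQC 0.11.8 and MultiQC 1.0 were used with GRCm38 and mm10, with no role stated. Neither the annotation release nor the read strand is stated in those sources. RSEM divides reads shared between genes, which makes near-identical genes uncertain.

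Symbols matched 55141 of 55487 identifiers, and GENCODE mouse release M21 (GRCm38) holds 99.5% of them. limma 3.58.1 in R 4.3.3, with trend and robust variances (statmod 1.5.0), was fitted to log2(FPKM + 1), and group was its sole covariate. Fold changes of low genes are understated on this scale. The fit was tested on simulated data. Exact permutation tests used scipy 1.17.1. Depth was estimated from the steps in FPKM of genes with a single transcript. Of such values, 70.6% to 78.7% per library fell within 0.1 read of a whole number. These depths entered no test.

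Both groups number their replicates 1 to 3. Deviations from group means correlated at 0.31, 0.17 and 0.48 for like numbers, all above the limit of 0.1, so the numbers were treated as pairs in an alternative fit. Unlike numbers correlated at -0.39 to 0.24. The highest, Znf750 cKO replicate 2 with Control replicate 1, also exceeded the limit and the like pair at 0.17. What a replicate number marks is not in the labels.

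The factors, lists and tests were chosen with earlier results of these data known. Named genes are the 10 factors, their receptors, and from each list the called genes and the most abundant ones, with at most 3 called genes per cell type. The summed level of the macrophage markers is not reported here. Cd207, Cdkn2b, Flg, Krt14, Col1a1, Dcn, Il2rg, Ackr2, Tgfbr2 and the Ccl27a copies were named after their values were seen.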

Additional observations from a re-analysis of the deposited data

How the results depend on the processing

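Each alternative changed 1 choice, except that trend and robust variances were dropped together and that 1 alternative, added after the data were seen, left out replicate 3 of both groups. Over all genes 577 passed as reported, 85 passed with no filter, and 100 to 356 with any 1 library left out. Among the 6 tested factors, 1 fell as reported. The number was 0 with no filter, median-ratio scaling, no trend and no robust variances, the replicate block, or without replicate 3 of both groups, and 2 after rescaling to TPM. It was 0 to 2 with 1 library left out. The added call under TPM (adjusted p = 0.049) and without Znf750 cKO replicate 2 (0.0054) was Il34. With the filter at 0.5 FPKM 1 factor was called higher, Tslp (adjusted p = 0.037), which met that filter only through Znf750 cKO, and its adjusted p was 0.14 with no filter. Ccl27a kept its direction under the 16 alternatives, with log2 changes from -0.67 to -0.48 and adjusted p from 0.035 to 0.15, and passed in 6. Il34 ranged from -1.85 to -1.21 (adjusted p from 0.0054 to 0.32) and Csf1 from -1.01 to -0.51 (from 0.084 to 0.4). Cxcl1 ranged up to 0.63 and turned to -0.00047 without Znf750 cKO replicate 3 and to -0.14 without replicate 3 of both groups. Direction held for Il34, Csf1, Tgfb1 and Cxcl14 under all 16.

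Among receptors 1 rose under median-ratio scaling and 1 under quantile normalization, Ackr3 in each, and 0 as reported. Csf1r passed under all 16. The single rise among Tgf-beta targets, Tgif1, became 0 with no filter, the filter at 0.5 FPKM, a pseudocount of 0.1, TPM, no trend and no robust variances, the replicate block and without replicate 3 of both groups, and 0 to 0 with 1 library left out. Among other chemokines 0 to 1 fell with 1 library left out and 1 without replicate 3 of both groups, Cxcl16 in each. Among other cytokines 1 rose under median-ratio scaling, Bmp7. The fall of Il15 became 0 with no filter, quantile normalization, the replicate block and without replicate 3 of both groups, and 0 to 1 with 1 library left out. The causes were not tested. Median-ratio scaling gave a median log2 change of all genes of 0, against -0.077 as reported, and 258 genes rose and 295 fell, against 152 and 425 as reported. Quantile normalization gave 201 and 218. The pairing by replicate number changed the calls of Ccl27a, Tgif1 and Il15 (adjusted p = 0.066, 0.058 and 0.062 with the block) and no other call among the factors and the 5 pathway lists. Among cell markers it ended 3 of the 9 falls in the Langerhans list and took the macrophage count to 5, against 7. Over all tested genes 1.87% fell with the block, against 3.1% as reported. Low levels limit what can be said of Il7, Ccl20, Cxcl12 and Tslp. Reads were estimated for Tslp alone, at about 27 to 62 per Znf750 cKO library and 1 to 6 per Control library.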

Other observations

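Several transcripts outside the groups of the comparison stood apart in the third replicates, a pattern chosen after the values were seen. Il2ra, a receptor chain of activated T cells, was at 5.05 FPKM in Znf750 cKO replicate 3 and 5.69 FPKM in Control replicate 3, and between 0.16 and 0.7 FPKM in the other 4 libraries. Pecam1, an endothelial and leukocyte adhesion protein, was at 31.1 FPKM in Znf750 cKO replicate 3 and 25.1 FPKM in Control replicate 3, and between 5.46 and 13.9 FPKM in the other 4. Cxcl1, Ccl20 and Cxcl12 were highest of all 6 libraries in Znf750 cKO replicate 3, at 3.19, 0.65 and 0.76 FPKM, whereas Control replicate 3 was the lowest of the 6 for Cxcl1 (0.74 FPKM) and Ccl20 (0.12 FPKM). What sets these libraries apart was not tested.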
